A study of Mus musculus with 4 samples.

Results

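The open chromatin of mouse fat was examined at 7 genes of Schwann cells and nerve. They were Sox10, Foxd3 and Egr2, which encode transcription factors, Erbb3 and Ngfr, which encode receptors, S100b, which encodes a calcium-binding protein, and Cdh19, which encodes a cadherin. They were chosen by name, as 7 of the 21000 protein-coding genes (of 26180 genes in all) with a curated RefSeq transcript on mm10. For each, peaks were sought within 500 bp of any curated start site, called the promoter below, and in a window from 20 kb upstream of the first start site to the gene end.

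The tissue was visceral fat of 8-week-old CD-1 mice, an outbred stock, and each of the 4 ATAC-seq libraries gave its own list of peaks. ATAC-seq marks open chromatin through the places where a transposase can cut the DNA. Controls 1 and 2 came from a line whose founding dams received sesame oil, and BPA 1 and BPA 2 from a line whose dams were injected with bisphenol A at 50 mg/kg between embryonic days 7.5 and 13.5. The sources differ on how many generations after the injections the mice were born, and they give neither sex nor batch. The list taken as BPA 2 by its sample record carries another replicate number in its own name than in the sample title, so which replicate it is remains a doubt. Nuclei came from homogenised pieces of fat, and the methods name no step that selects a cell type. The lists held 72375 to 98060 peaks. The lowest pile-up at the summit of any peak was 9 reads in each control, 6 in BPA 1 and 11 in BPA 2. Pile-ups were solved from the fold and p-value of each peak.

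Schwann cells are the glia of peripheral nerves, which run through fat together with its vessels. They arise from the neural crest, where Foxd3 and then Sox10 act, and Sox10 stays on in Schwann cells for life. Neuregulin on the axon signals through the receptor pair of Erbb2 and Erbb3. Egr2 switches on the myelin genes, while Ngfr, the low-affinity neurotrophin receptor, marks immature, non-myelinating and injured Schwann cells. Several members are also used outside nerve. Adipocytes make S100b, Egr2 is an immediate-early gene that takes part in adipocyte differentiation, and Ngfr is found on some stromal cells.

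The set of promoter sequences used here (GRCm38.p6) held the stretch before the start site for 4 of the 7 members, S100b, Ngfr, Foxd3 and Egr2. Sox10, Erbb3 and Cdh19 were not in that set, although RefSeq gives each of them a curated start site. The 250 bases before the start site are shown for these 4 because their CpG content, marked by capitals, differs and so did their peaks. For Egr2, which has 6 curated start sites, the one nearest to the peak summits is shown.
S100b promoter, chr10:76253586-76253835 (plus strand): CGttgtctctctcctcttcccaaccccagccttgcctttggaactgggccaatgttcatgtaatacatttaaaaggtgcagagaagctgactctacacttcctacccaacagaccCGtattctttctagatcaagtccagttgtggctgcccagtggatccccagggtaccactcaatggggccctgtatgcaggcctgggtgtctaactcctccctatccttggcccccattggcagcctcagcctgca
Ngfr promoter, chr11:95587699-95587948 (minus strand): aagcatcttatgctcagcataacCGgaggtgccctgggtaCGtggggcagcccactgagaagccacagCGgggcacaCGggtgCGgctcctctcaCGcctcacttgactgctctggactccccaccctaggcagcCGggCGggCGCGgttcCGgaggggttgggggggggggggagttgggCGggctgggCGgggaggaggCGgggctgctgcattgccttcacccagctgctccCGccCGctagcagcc
Foxd3 promoter, chr4:99656049-99656298 (plus strand): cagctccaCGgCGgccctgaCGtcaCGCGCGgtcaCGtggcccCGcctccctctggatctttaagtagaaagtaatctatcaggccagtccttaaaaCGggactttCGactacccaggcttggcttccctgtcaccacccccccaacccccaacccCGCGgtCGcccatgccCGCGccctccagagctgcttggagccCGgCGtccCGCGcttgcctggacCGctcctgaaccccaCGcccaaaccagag
Egr2 promoter, chr10:67537316-67537565 (plus strand): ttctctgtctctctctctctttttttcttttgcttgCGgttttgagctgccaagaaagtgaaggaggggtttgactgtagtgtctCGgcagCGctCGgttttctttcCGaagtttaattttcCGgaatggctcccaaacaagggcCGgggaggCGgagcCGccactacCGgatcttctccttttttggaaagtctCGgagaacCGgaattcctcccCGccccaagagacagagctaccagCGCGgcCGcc
The S100b stretch held 2 CpG, those of Ngfr and Egr2 16 each, and that of Foxd3 21. Foxd3, the richest in CpG of the 4 stretches shown, was the one without a promoter peak in any library. The 250 bases before the first start site of Egr2, not shown, held 26 CpG, more than those of Foxd3.

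Of the 7 promoters, 4 and 3 had a peak in controls 1 and 2, and 3 and 4 in BPA 1 and BPA 2. Of all protein-coding genes, 62.6% and 61.4% had one in controls 1 and 2, and 64.1% and 67.4% in BPA 1 and BPA 2. Erbb3 and Egr2 had a promoter peak in all 4 libraries, as did 57.9% of coding genes, and 4 of the 7 had one in at least 1 library, against 69.6% of coding genes. S100b and Ngfr had one in 3 libraries. Sox10, Foxd3 and Cdh19 had none. Where a promoter peak is missing or weak, fewer cells of a type and less open chromatin per cell cannot be told apart in tissue of mixed cells.

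The group means of these counts were equal. The mean number of members with a promoter peak was 3.5 ± 0.707 (SD, n = 2 libraries) in the controls and 3.5 ± 0.707 (SD, n = 2) in the BPA libraries, a difference of 0. No member's promoter was called in BPA 1 and BPA 2 but in no control, a pattern seen at 2.51% of coding genes. None had the opposite pattern, seen at 0.433%. With 2 libraries a group, a two-sided exact permutation test cannot go below p = 0.333, so no test between groups was made and presence and rank are given as descriptions.

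**Figure D1:**
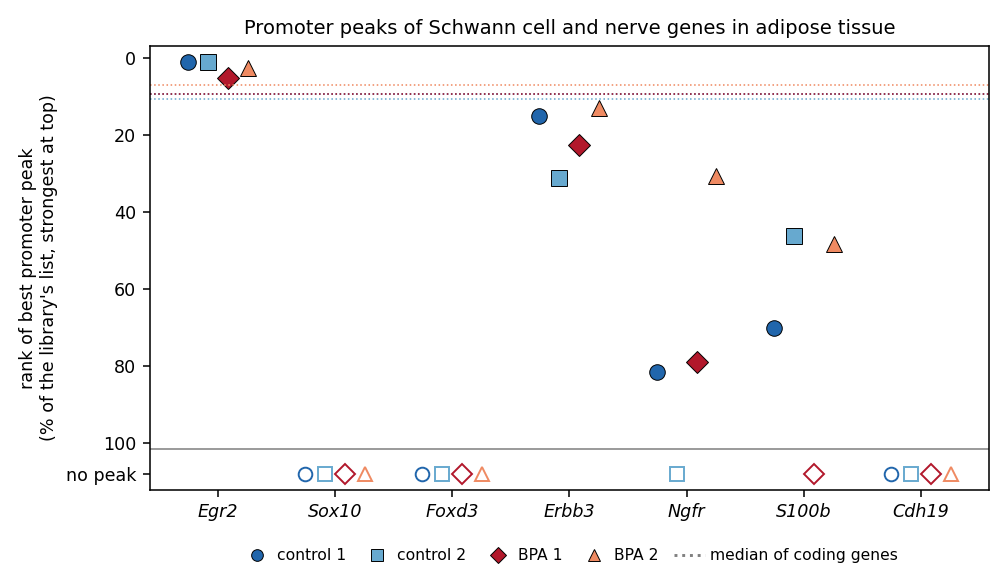
Rank of the strongest promoter peak of each member in each library, as a percentage of that library's list ordered by −log10 q-value, with the strongest peaks at the top of the y axis. Filled symbols are peaks, open symbols in the bottom row mark a promoter without one, and dotted lines give the median over coding genes with a promoter peak (7.08% to 10.9%). Egr2 lies above the dotted lines in every library, Erbb3 between 13.1% and 31.1%, and the peaks of S100b and Ngfr between 30.8% and 81.6%.

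By −log10 q-value, Egr2 had the strongest promoter peak among the members in every library. A peak's rank is its place in the list of its own library by −log10 q-value, as a percentage, so that 1% means near the top. The Egr2 promoter peak ranked at 1.24% and 1.27% in controls 1 and 2, and 5.31% and 2.68% in BPA 1 and BPA 2. Both control ranks were better than both BPA ranks, an order also found at 18.7% of the coding genes with a promoter peak in all 4 libraries. The median best promoter peak of coding genes ranked at 9.55%, 10.9%, 9.53% and 7.08% in the same order of libraries. At the summit 109, 114, 122 and 462 reads piled up. The deposited fold, which is the pile-up plus 1 over the local background plus 1, was 7.32, 8.79, 9.71 and 8.46. Ranked by fold, the Egr2 peak stood lower, at 6.09%, 5.34%, 14.0% and 15.2%, and in BPA 2 behind the Erbb3 peak at 13.8%. The folds of the groups overlapped, and the pile-up itself grows with sequencing depth and is no measure of a difference between libraries.

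The peaks at Egr2 covered most of its start sites. The gene lies on the plus strand at chr10:67535499-67542188 with start sites from 67535499 to 67537930. The summit lay 17 bp upstream of the start site at 67537566 in control 1 and 85 bp upstream in control 2. In both BPA libraries it lay 107 bp downstream of that site. The 5 start sites from 67537211 onward had a peak in all 4 libraries. The most upstream site had one in control 1 and BPA 2 alone.

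Sox10, the factor that defines the Schwann cell lineage, had no promoter peak in any library (minus strand, chr15:79154913-79164490, 1 start site). Its window held 5 peak regions, formed by merging overlapping peaks of the 4 lists, and none was found in more than 2 libraries. The one with the best ranks lay in intron 2, 2041 bp downstream of the start site. It was found in control 2 at a rank of 82.2% with a pile-up of 14, and in BPA 2 at 65.7% with a pile-up of 28. No peak in the Sox10 window had a better rank in any list. Of the other 4, a region 8108 bp upstream was found in BPA 1 and BPA 2 but no control, at ranks of 96.9% and 98.2% and pile-ups of 7 and 14, close to the weakest peaks these lists hold. The 3 upstream regions all lay in an intron of Gm10863, a neighbouring gene without a known protein product.

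Foxd3, the neural crest factor, had no promoter peak either (plus strand, chr4:99656299-99658671). Its only 2 regions came from BPA 2, one 5168 bp upstream of the start site at a rank of 93.9% and one 1307 bp downstream in the coding exon at 93.7%. Their pile-ups were 14 and 19. Its window was empty in both controls and in BPA 1.

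Erbb3, the neuregulin receptor subunit, had a moderate promoter peak in every library (minus strand, chr10:128567523-128589635). Its ranks were 15.2% and 31.1% in controls 1 and 2, and 22.6% and 13.1% in BPA 1 and BPA 2, and the groups overlapped. The folds over local background were 5.66, 4.97, 7.23 and 8.73 in the same order. Between 63.7% and 78.6% of the coding genes with a promoter peak ranked better than Erbb3 in the same library. The summit lay 182 bp, 188 bp and 281 bp upstream of the start site in control 1, control 2 and BPA 1, and 542 bp upstream in BPA 2, just outside the 500 bp limit although the peak itself reached across the start site.

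A second Erbb3 region lay in intron 4, 5782 bp downstream of the start site and 644 bp from the start of the microRNA gene Mir6917, whose promoter it overlapped. It ranked at 14.6% in control 1, 25.7% in control 2 and 49.4% in BPA 1 and was not called in BPA 2, the library with the longest list. The pile-ups were 41, 34 and 19. It is shown here because it ranked better than the Erbb3 promoter in both controls. Capitals mark the reverse complement of the GC box letters GGGCGG.
Erbb3 intron 4, chr10:128583753-128583953 (minus strand): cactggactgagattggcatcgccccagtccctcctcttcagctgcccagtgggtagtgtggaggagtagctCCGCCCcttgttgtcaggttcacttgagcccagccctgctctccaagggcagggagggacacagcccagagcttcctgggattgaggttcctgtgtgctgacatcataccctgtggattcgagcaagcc

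Ngfr, the neurotrophin receptor, had a promoter peak in 3 libraries (minus strand, chr11:95568818-95587698). Its rank was 81.6% in control 1, 79.0% in BPA 1 and 30.8% in BPA 2, with pile-ups of 14, 15 and 63. Control 2 had no peak in the whole Ngfr window. The better rank of BPA 2 did not belong to the start site. Its peak ran from the start site into intron 1, where the summit lay 1229 bp downstream, while in control 1 the summit was 278 bp downstream and in BPA 1 32 bp upstream. BPA 1 had a separate peak in intron 1, at a rank of 55.4%, with its summit 1232 bp downstream. Control 1 had one there too, at a rank of 97.5% with its summit 1246 bp downstream. The 3 summits in intron 1 thus lay between 1229 and 1246 bp from the start site. The 201 bases around the BPA 2 summit are shown with CpG in capitals, of which they hold 14.
Ngfr intron 1, chr11:95586369-95586569 (minus strand): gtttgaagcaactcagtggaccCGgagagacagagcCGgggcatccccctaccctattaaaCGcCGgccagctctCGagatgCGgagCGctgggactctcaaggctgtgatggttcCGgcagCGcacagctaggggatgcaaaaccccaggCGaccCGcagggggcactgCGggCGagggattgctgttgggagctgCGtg

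Around Ngfr lay 3 of the 5 regions found in BPA 1 and BPA 2 but no control. The strongest, 19308 bp downstream of the start site and just past the gene end, ranked at 31.3% in BPA 1 and 40.3% in BPA 2, with folds of 7.07 and 5.24. The BPA 1 peak there lay wholly past the gene end, and the region entered the window through the wider BPA 2 peak. A region 7859 bp upstream ranked at 69.7% and 62.4%, and one 9282 bp upstream at 84.0% and 76.1%. A missing peak says that no site passed the threshold of that list, not that its level was measured as lower.

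S100b had a weak promoter peak in 3 libraries (plus strand, chr10:76253836-76261319). It ranked at 70.2% and 46.3% in controls 1 and 2 and at 48.4% in BPA 2, with pile-ups of 20, 28 and 56 and folds of 3.04, 3.99 and 3.81, and BPA 1 had none. Between 87.0% and 95.7% of coding genes with a promoter peak ranked better in these libraries. The summits lay 181 bp, 4 bp and 268 bp upstream of the start site.

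The main open site of S100b lay inside the gene. A region in intron 2, 4236 bp downstream of the start site, had a peak in all 4 libraries, at 61.6% and 37.4% in controls 1 and 2, and 19.2% and 19.0% in BPA 1 and BPA 2. The folds were 3.19, 4.18, 9.31 and 6.03. Both BPA libraries ranked it better than both controls, an order shared by 27.7% of the merged regions found in all 4 libraries. The opposite order was found at 27.5% of those regions, so the order at this site was a common one. The 201 bases around its BPA 2 summit are shown because it is the only region inside a member gene, away from a promoter, that all 4 libraries held. Peaks of all 4 libraries covered this stretch, but their summits differed. In controls 1 and 2 the summit lay 4097 bp and 4046 bp downstream, outside the stretch, and in BPA 1 4305 bp downstream, inside it. Capitals mark a match to TGANTCA, the letters searched for AP-1, and further on ACAAT, the short core that SOX proteins bind. N stands for any base and was A here, so the match is to this loose pattern only.
S100b intron 2, chr10:76257972-76258172 (plus strand): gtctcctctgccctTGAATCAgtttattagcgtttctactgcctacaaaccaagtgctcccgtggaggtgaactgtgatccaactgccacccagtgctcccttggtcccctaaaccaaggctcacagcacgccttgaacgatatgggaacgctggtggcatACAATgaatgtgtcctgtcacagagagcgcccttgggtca
The S100b window also took in the promoter of Prmt2, a neighbouring gene for an arginine methyltransferase, 15903 bp upstream. That region was found in all 4 libraries at ranks from 3.38% to 8.73% and was not counted as an S100b promoter.

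Cdh19, the cadherin of Schwann cell precursors, was the emptiest of the 7 (minus strand, chr1:110888326-110977593). In a window of 109 kb it held a single region, a control 1 peak far inside the gene, 86314 bp downstream of the start site, at a rank of 85.7% with a pile-up of 13.

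**Figure D2:**
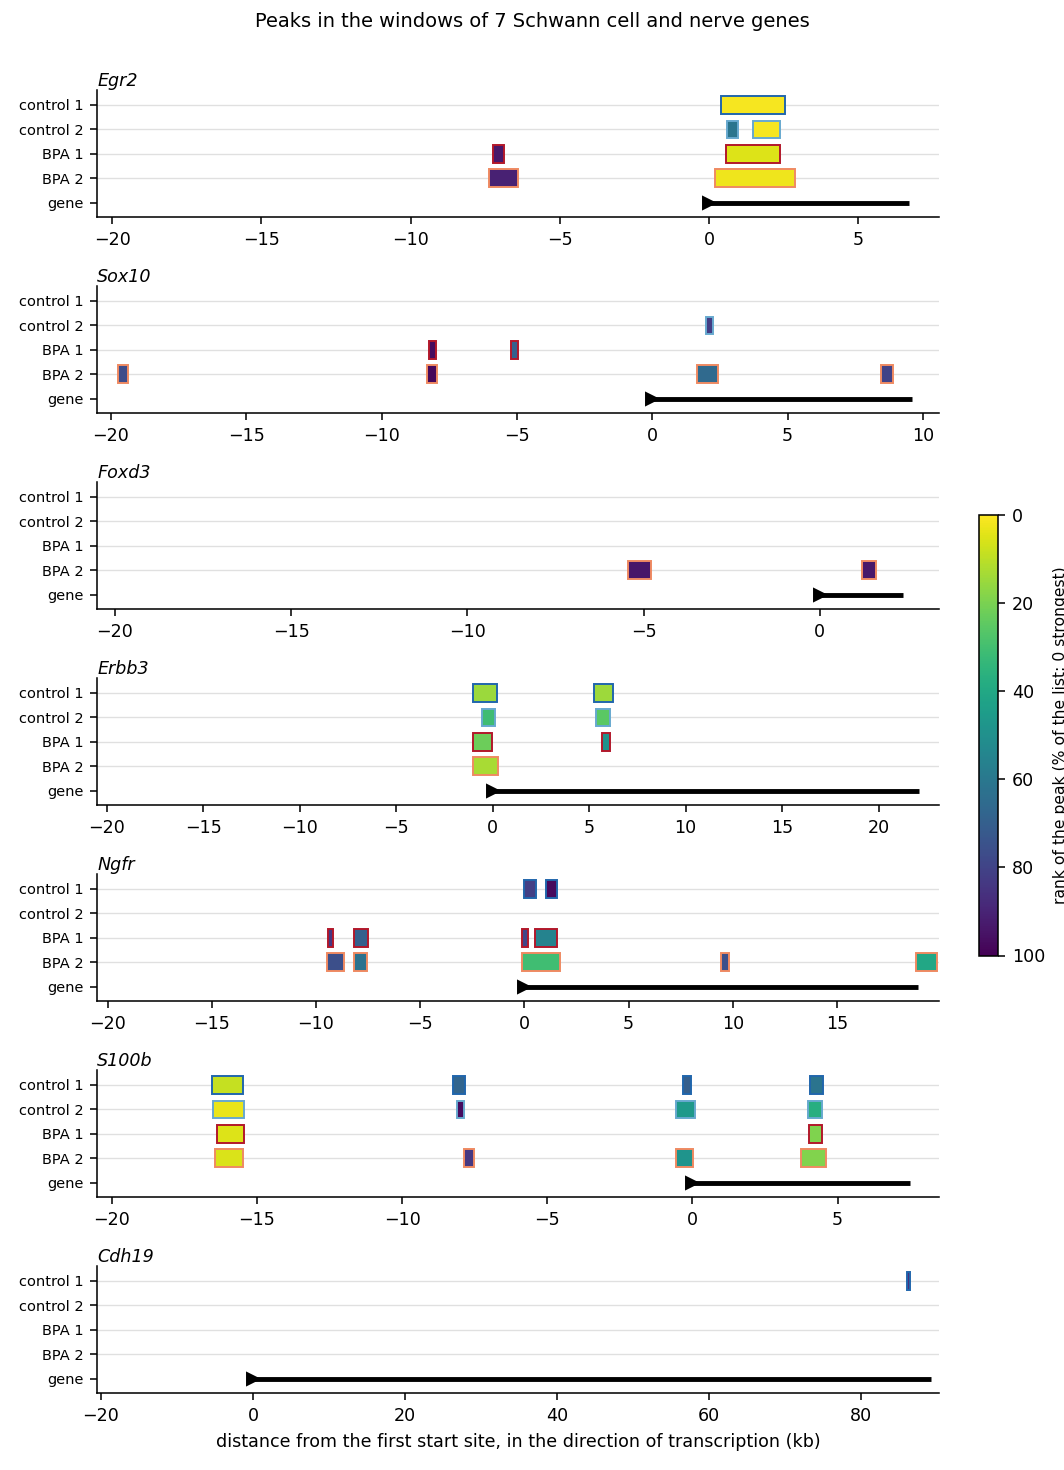
Peaks of each library in the windows of the 7 members. The x axis gives the distance from the first start site in kb in the direction of transcription, and its span differs between panels. Each row is a library, boxes are peaks coloured by their rank in the list with yellow as the strongest, box outlines give the library, and the black line with its arrow is the gene. The Egr2, Erbb3 and S100b windows hold peaks in every library, while the Cdh19 window holds 1 and the Foxd3 window 2, both from BPA 2.

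The 7 windows held 21 regions together. Of these, 4 were found in all 4 libraries (19.0%, against 26.3% of the 147146 merged regions of the genome), 4 in 3 libraries, 6 in 2 and 7 in 1 library (33.3%, against 39.5%). Of the 7 found once, 5 came from BPA 2. By library the windows held 10 and 9 peaks in controls 1 and 2, and 12 and 18 in BPA 1 and BPA 2. S100b, Erbb3 and Egr2, 3 of the 7, had a window peak in all 4 libraries, as did 75.5% of coding genes. Density was uneven, from 0.915 regions per 100 kb at Cdh19 to 16.9 at Sox10, with 8.25 as the median of coding genes. Sox10 had a higher density than 91.1% of coding genes although no region of its window was found in all 4 libraries, a lack it shared with the windows of 26.7% of coding genes.

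Both BPA libraries and neither control held 5 of the 21 regions (23.8%), against 9.4% of merged regions genome-wide. The reverse was found for none, against 5.33%. The 5 were the 3 around Ngfr, the one upstream of Sox10 and one 6520 bp upstream of Egr2, which ranked at 93.7% in BPA 1 and 90.6% in BPA 2. The count moved with the lists used. With each list cut to its best 72375 peaks it was 2, and without BPA 1 it was 10. Markers of another cell type moved with the same groups. Promoters of endothelial genes had peaks at 2 of 6 in each control and at 6 of 6 in each BPA library. Of the 6, 4 had a peak in both BPA libraries and no control, against 2.51% of coding genes. The list was chosen with earlier results of these data known, so it gives no independent support. The part of this endothelial shift in the nerve gene regions was not tested.

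Other genes of Schwann cells had promoter peaks at 13 to 17 of 24, by library. Of 12 genes of myelinating Schwann cells, 7 were called at the promoter in every library but BPA 2, where 8 were. Those found in all 4 libraries included Pmp22, which encodes a myelin protein of peripheral nerve, Mbp and Cnp, which encode proteins of myelin in general, and Pou3f1, the factor that acts before Egr2. The Pou3f1 peak also covered the promoter of Gm2164, so it cannot be assigned to 1 gene. Prx, Mag, Gjb1 and Ncmap, all for proteins of the myelin sheath, had none. Of 12 genes of non-myelinating and immature Schwann cells, 6, 8, 7 and 9 had a promoter peak in the same order of libraries, and 6 had one in all 4. Together 12 of the 24 genes were found in all 4 libraries, against 57.9% of coding genes, and 7 in none.

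The partners of the receptors were open in nearly every library. Of 8 genes for neuregulin and neurotrophin ligands, receptors and adhesion partners, 7 had a promoter peak in each of control 1, control 2 and BPA 1 and 8 in BPA 2. On the neuron list, 2, 4, 4 and 4 of 8 genes had a promoter peak, and Tubb3, for a neuronal tubulin, had one in both BPA libraries alone, at 82.1% and 65.8%. Cell bodies of peripheral neurons lie mostly outside fat, in ganglia.

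Sox10 also acts in melanocytes and in glia of the brain. Of 5 melanocyte genes 1 had a promoter peak in control 1 and 0 in the other libraries, and of 4 central glia genes 1, 1, 1 and 2 did. All 7 adipocyte genes, markers of the labelled tissue, had one in every library. The 28 adipocyte promoter peaks ranked from 4.42% to 89.0% with a median of 45.8%. The members had promoter peaks in 14 of 28 pairs of gene and library, 8 of them at Egr2 and Erbb3, and these ranked from 1.24% to 81.6%. No median is set against that of the adipocyte genes, since the other 14 pairs had no peak to rank. Of the 6 endothelial genes, Pecam1, Cdh5, Emcn and Tie1 had promoter peaks in BPA 1 and BPA 2 but no control. The best ranked was Tie1, an endothelial receptor, at 10.0% and 8.44%. The same pattern held for Rgs5 of 6 pericyte and smooth muscle genes (90.3% and 60.0%), Pi16 of 5 progenitor genes (50.0% and 43.8%) and Cd68 of 6 leukocyte genes (24.2% and 71.7%). Of 4 mesothelial genes 3, 2, 2 and 1 had a promoter peak.

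**Figure D3:**
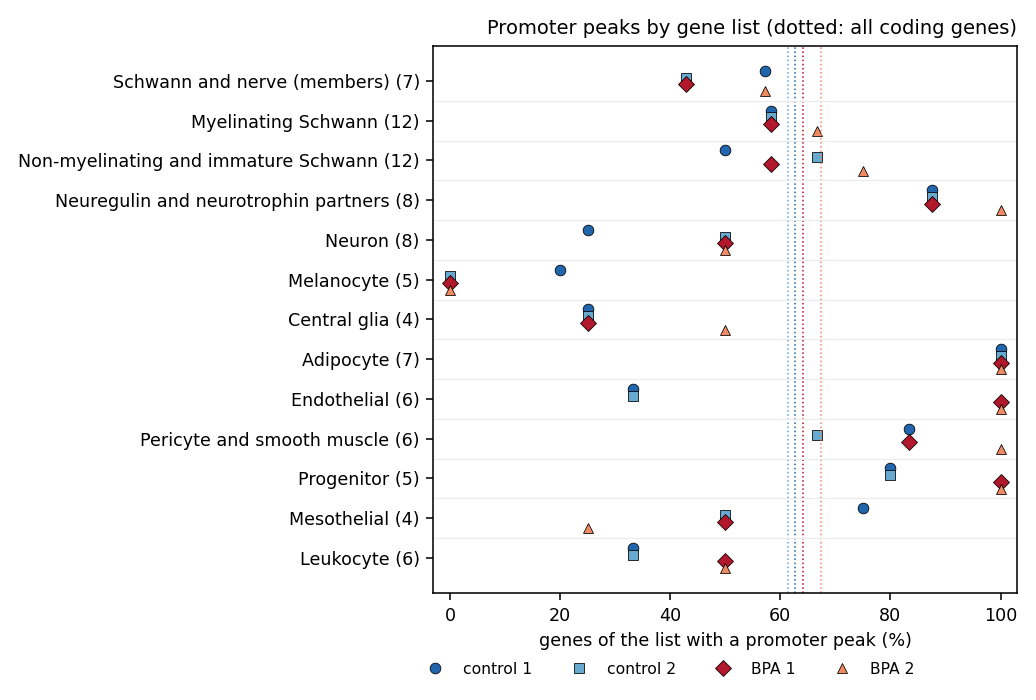
Share of the genes of each list with a promoter peak, in percent on the x axis, with 1 symbol per library and the number of genes of the list in brackets. Dotted lines give the share over all coding genes (61.4% to 67.4%). The members lie below those lines in every library, the adipocyte list is complete in every library, and the endothelial list parts the controls (2 of 6) from the BPA libraries (6 of 6).

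Promoter peaks over the genome followed base composition, and the members were read against it. Promoters taken as 500 bp to either side of the start site were called CpG-rich where at least 50% of the bases were G or C and CpG occurred at least 0.6 times as often as the base content predicts. Of the 10533 coding genes with such a promoter, 89.3% had a peak in all 4 libraries and 2.74% had none. Of the 10467 other coding genes, 26.4% had a peak in all 4 and 58.2% had none.

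Egr2 and Foxd3 were the only CpG-rich members. Egr2, with an observed over expected CpG of 0.680 at its first start site, belonged to the majority with a peak in every library. Foxd3 had the highest value of the members, 0.819 with 68.3% G+C, and belonged to the 2.74% without a peak. Sox10 (0.325), Cdh19 (0.184) and S100b (0.157) were CpG-poor, and Sox10 and Cdh19 shared the absence of a peak with 58.2% of that class. Erbb3 and Ngfr lay just under the limit, both at 0.590.

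**Figure D4:**
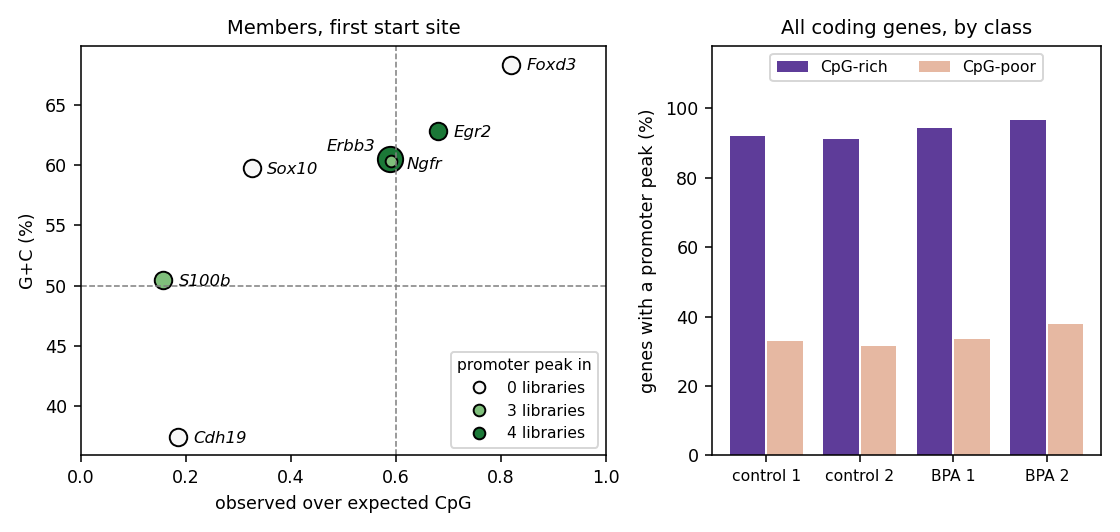
Left, G+C content in percent against observed over expected CpG within 500 bp of the first start site of each member, filled by the number of libraries with a promoter peak, with dashed lines at the class limits of 0.6 and 50%. Right, percentage of coding genes with a promoter peak in each library by class. Foxd3 is the open symbol at the CpG-rich end, and by library 91.2% to 96.7% of CpG-rich genes but 31.4% to 38.0% of CpG-poor genes had a peak.

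Letters of binding motifs were counted on both strands in the 201 bp around the best summit of the 21 regions. The SOX letters ACAAAG occurred in none (15.9% of all merged regions) and ACAAT in 3 (14.3%, against 27.5%), at the S100b intron 2 region, the S100b region 8099 bp upstream and the Cdh19 region. The EGR letters GCGTGGGCG occurred in none (0.133%) and GCGGGGGCG in 1, the region at the Erbb3 start site (0.485%). The stretch searched there was centred on the BPA 2 summit, 542 bp upstream, and the match did not lie within the 500 bp of the promoter. The GC box GGGCGG occurred in 6 of 21 (28.6%, against 9.64%). The loose AP-1 letters TGANTCA, with N as any base, occurred in 1, the S100b intron 2 region (10.2%). GGAATG, the core of TEAD sites, occurred in 1, the region upstream of Egr2 (13.6%). The GC box letters overlap those of GCGGGGGCG where a further G follows. Within 500 bp of the start sites, ACAAAG occurred at Sox10 and Foxd3 (2 of 7 members, against 47.0% of all start sites) and ACAAT at S100b and Foxd3 (60.9%). Neither EGR motif occurred there in any member, against 2.03% and 8.39% of start sites, and the GC box occurred at Erbb3, Ngfr, Foxd3 and Egr2 (63.6%). All these shares are descriptions and say nothing of which factor was bound.

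The promoters with the pattern most like Erbb3 and Egr2 were found by the largest difference in rank over the 4 libraries, among 12164 other coding genes with a promoter peak in all 4. For Erbb3 they were Gpc1, which encodes a glypican, with a largest difference of 2.05 percentage points, and Kcnip3, which encodes a calcium-binding protein, with 2.47. For Egr2 they were Ndufv2, which encodes a subunit of respiratory complex I, with 0.479, and Ap1ar, with 0.494.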

How the data were processed

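ATAC-seq libraries of visceral fat from 4 CD-1 mice, 2 control and 2 BPA, were grouped by their labels. The authors trimmed reads (Trim Galore), mapped them to mm10 (Bowtie2 2.3.5.1, with a raised limit on fragment length), kept unique reads, removed duplicates (SAMtools) and called peaks with MACS2 2.2.7.1 on each library alone. Other MACS2 options are not given in the sources used here. The authors deposited, per peak, a score (the whole-number part of 10 times −log10 q), a ratio (fold, the pile-up plus 1 over local background plus 1), the −log10 p-value and −log10 q-value, and the summit offset. Read totals are not in these values, so depth is given as peak number and pile-up. The 4 mice are separate animals.

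Peaks were ranked within each list by −log10 q-value. Pile-up and background were solved from fold and p under a Poisson model (100% of peaks in every library, tolerance 0.0001). A peak counted if 1 bp overlapped a promoter or window, and peaks of the 4 lists were merged where they overlapped. Start sites were curated RefSeq transcripts of GRCm38.p6. No test between groups was made. The members and gene lists were chosen with earlier results of these data known. All 7 members were named, list genes where a promoter peak was found in both libraries of a group and neither of the other, and in each window the best shared region and every region parting the groups. Other regions and genes were named after their values were seen. Some genes of the lists count in their totals but are not reported here by name. Alternatives were a −log10 q-value of 5, the best 20000 peaks, equal numbers, summits in place of peaks, other promoter, window and overlap limits, ranks by fold, and leaving out each library. The counting was tested on simulated data. Python 3.11.15, pandas 2.3.3, scipy 1.17.1 and pysam 0.24.0 were used.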

Additional observations from a re-analysis of the deposited data

How the results depend on the processing

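Over 94 alternative values of the counts, 76 stayed within 1.5 times the reported count (the group difference within 1 SD) and 18 moved. Reversal of direction was not scored. Under a stricter −log10 q limit of 5, regions in both BPA libraries and neither control fell to 3 from 5, and with equal numbers of peaks to 2. With the best 20000 peaks, members with a promoter peak in all 4 libraries numbered 1 and in at least 1 library 2, the windows held 5 regions, 2 of them in all 4 libraries and 1 in both BPA libraries alone. With summits in place of peaks, 1 member (Egr2) was called in every library and the BPA minus control difference in mean number was -1. Windows from 50 kb upstream held 35 regions, and from 5 kb upstream 1 region in both BPA libraries alone. Where a peak had to cover 50% of its region, 1 region was found in both controls alone.

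Leaving out each library gave, for members, 4 with a peak in at least 1 library, 2 to 3 in every library left, 0 to 1 in both or the remaining BPA library alone and 0 to 1 in control alone, and a difference of -0.5 to 0.5. For regions it gave 15 to 21 in all, 4 to 6 in every library left, 5 to 10 in BPA alone and 0 to 2 in control alone. Without BPA 1 regions in BPA alone rose to 10 and regions in all libraries left to 6. Without control 1, Ngfr became the member with BPA peaks alone, and without BPA 2, S100b became the member with control peaks alone.

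Ranks by fold in place of −log10 q-value moved 7 of 14 promoter ranks by more than the spread of replicates or, without a replicate, moved them at all, by up to 23.8 percentage points, and 13 of 14 became larger. No paired analysis was possible because no result comes from a test and the replicate numbers name separate mice. Depth limits the reading: a site under the lowest pile-up of its list cannot be a peak, so a missing peak does not show closed chromatin.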
